A study of Mus musculus with 14 samples.

Results

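The control livers were the 6 arrays labelled as control replicates 1 to 6, of 14 arrays in all. They came from male mice of C57BL/6 background, homozygous for floxed alleles of both AMPK alpha genes, Prkaa1 and Prkaa2, and injected with an empty AAV8-TBG vector (the labels write TGB). AAV8-TBG is an adeno-associated virus with the hepatocyte-directed TBG promoter, used in the knockout group to bring Cre to hepatocytes. Per the labels, high-fat feeding (60% of calories from fat) began at 6 weeks of age and lasted 4 weeks before the injection at 10 weeks. Metformin, a glucose-lowering drug, was then given at 50 mg/kg/day for 3 weeks, and the livers were taken after a 16 h fast from mice labelled as 4 months old, although the weeks given add up to less. The floxed alleles, the diet, the drug and the fast were shared by all 14 samples. Livers without metformin were not analysed here, so the landscape below is that of fasted, fat-fed, metformin-treated mice.

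The liver makes most of the proteins of blood plasma, disposes of ammonia as urea, and releases glucose during a fast from glycogen and from lactate, amino acids and glycerol. Hepatocytes carry out most of these tasks, and their neighbours include sinusoidal endothelium, Kupffer cells (the resident macrophages), stellate cells and bile duct cells. In a fast, glucagon and glucocorticoids raise the genes of glucose output and fatty acid oxidation, while growth hormone, inflammation and interferon each act on gene sets of their own. In bulk liver RNA, fewer cells of a type and less RNA per cell cannot be told apart.

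The 6 arrays fell into 2 sets by their correlations, controls 1 to 3 (set 1) and controls 4 to 6 (set 2). Over all 22206 rows of the array data, r was 0.988 to 0.992 between arrays of a set. Between arrays of different sets it was 0.955 to 0.963. The labels name no batch, so what separates the sets is not stated. Array medians over 19505 named genes lay between 5.85 and 5.96 on the log2 scale, and the median gene stood 0.11 higher in set 2. Spread between livers is therefore given within sets, as the SD pooled over both sets (4 degrees of freedom). Signals are not scaled by transcript length, and each probe set has its own brightness. The order of genes given here is thus an order of array signal, not of transcript number.

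Arrays at the same place in the 2 sets also deviated together. Each gene was expressed as its deviation from the mean of its own set. Across 10475 genes above background (defined below), the deviations of control 1 and control 4 correlated at r = 0.37, those of 2 and 5 at 0.22, and those of 3 and 6 at 0.21. The 6 other pairs across the sets gave r from -0.25 to 0.05. The knockout arrays gave 0.13 to 0.20 at the same places (1 with 5, 2 with 6, 3 with 7, 4 with 8) and at most 0.01 elsewhere. These are descriptions across genes, which are not independent of each other. Deviations from a set mean cancel within the set. A positive r at the same place therefore forces the r of the other pairs to be lower, and on average negative. The low r of the other pairs is thus no separate result. The labels say neither that each sample is a separate mouse nor that any share 1; whether arrays at the same place share an animal was not tested. If they did, the controls would be fewer than 6 livers, and agreement between the sets would be agreement between arrays of the same livers. No p-value is given for any pattern below.

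The brightest genes were secreted proteins of the hepatocyte. Apoe, the apolipoprotein of remnant particles, led with 13.72, 13.69, 13.71, 13.76, 13.73 and 13.73 in controls 1 to 6. Alb, serum albumin, gave 13.57, 13.64, 13.64, 13.71, 13.68 and 13.70, and Ttr, the thyroxine and retinol carrier transthyretin, averaged 13.62 ± 0.09 (SD, n = 6). For both Apoe and Alb every array of set 2 was above every array of set 1, by little. The next places were held by Mgst1, a microsomal glutathione transferase, at 13.61, the high-density lipoprotein proteins Apoa1 and Apoa2 at 13.59 and 13.55, and transferrin (Trf) at 13.54. Cyp2e1, the ethanol-inducible cytochrome P450, stood at 13.54 ± 0.11, with 13.43, 13.47 and 13.43 in set 1 against 13.64, 13.67 and 13.63 in set 2.

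The 30 brightest genes ran from 13.72 down to Serpina1c, an alpha-1-antitrypsin, at 13.11. Most fell into 5 kinds of product. The first was lipid and vitamin carriers (Apoe, Apoa1, Apoa2, Apoh, Rbp4). The alpha-1-antitrypsins Serpina1e (13.45), Serpina1a and Serpina1c formed the second, and the major urinary proteins Mup2 (13.41), Mup22, Mup3, Mup20 and Mup19 the third, although probes may not tell near-identical Serpina1 and Mup copies apart. The fourth was iron and haem binders, with hemopexin (Hpx, 13.33), haptoglobin (Hp, 13.24) and ferritin heavy chain (Fth1, 13.15). The last was intracellular enzymes, namely Hpd of tyrosine breakdown at 13.30, Mat1a, which makes S-adenosylmethionine, at 13.13, and the peroxide-removing Gpx1 (13.23) and Cat (13.13). B2m, the light chain of class I antigen presentation, was also among them, at 13.46.

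These signals lay close together and close to the top of each array, where the brightest value was 13.71 to 13.76, so no fold between them is given. Their median pooled SD was 0.039, against 0.186 over all genes. Mat1a differed between the sets, at 13.02, 12.93 and 12.92 in set 1 and 13.35, 13.31 and 13.24 in set 2. Of the 100 brightest genes of each set, 64 were shared, and over all genes the set means kept nearly the same order (Spearman 0.970, across genes).

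A background level was taken from genes that liver is not known to use. The 1437 olfactory, vomeronasal and taste receptor genes had a median of 3.16 in set 1 and 3.26 in set 2, and their 99th percentile was 5.41 and 5.48. A gene above that percentile in both sets is called above background here. That held for 10475 of 19505 genes (53.7%), and 702 genes (3.6%) were among the brightest 5% in both sets.

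Secretory lists headed the order of functions. Every measured member was above background in 20 of 29 function lists, and the median of 19 lists lay in the brightest 5%. The major urinary proteins (8 measured) had a median of 13.09, the plasma carriers (17) 13.07, and the apolipoproteins and lipoprotein assembly genes (13) 12.53. Within the last, Apoa1 and Apoe were at the top, while Mttp, which loads lipid onto apolipoprotein B, was at 10.37 and Pltp, the phospholipid transfer protein, was dimmest at 9.28. The serpins and inter-alpha inhibitors (16) followed at 12.39 and the acute phase genes (24) at 11.66. Cytosolic ribosomal proteins (49) and respiratory complexes II to V (39) had medians of 11.27 and 11.23. In set 1 both were above the acute phase genes, at 11.98 and 11.80 against 11.46. In set 2 both were below them, at 10.78 and 10.83 against 11.78. The order of functions below the serpins thus depended on the array set.

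Clotting and complement genes were lower in median signal than the secretory and acute phase lists above. The 16 coagulation genes had a median of 11.29, from the fibrinogen chain Fgg and vitronectin (Vtn), both 13.31, down to Pros1 and F11, both 9.21. The 21 complement genes had a median of 11.09, led by C8g at 12.45 and Cfi at 12.17. The dimmest were C1qc at 8.43, C1qb at 8.91 and C1qa at 9.14. These 3 genes are made by macrophages, and their pooled SDs of 0.58 to 0.60 were the widest of the list.

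Nitrogen and amino acid handling lay in the same range as clotting and complement. The 7 measured urea cycle genes had a median of 11.49, with Arg1, the enzyme that releases urea, at 12.27, Cps1, which fixes ammonia, at 12.14 and Otc at 11.99. The 2 mitochondrial carriers of the pathway, Slc25a15 and Slc25a13, were at 10.55 and 10.25, and Nags, which makes the activator of Cps1, was dimmest at 9.86. The 30 amino acid catabolism genes had a median of 11.09, and 19 were among the brightest 5%. Tyrosine (Hpd), methionine (Mat1a, Bhmt 13.10, Gnmt 13.04) and tryptophan breakdown (Tdo2 12.77) led, while glycine cleavage was dim, with Gldc at 9.14 and Amt at 8.94.

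Glucose output ranked above glycolysis and glycogen in signal. The 14 gluconeogenesis and glucose release genes had a median of 10.91. Fbp1, fructose bisphosphatase, gave 12.57 ± 0.11, the hexose carrier Slc2a2 12.36, the cytosolic carboxykinase Pck1 12.13 ± 0.44 and the glucose-6-phosphatase G6pc 10.95 ± 0.49. Pck1 was lower in set 1 (11.61, 11.60, 12.10) than in set 2 (12.56, 12.34, 12.55), without overlap. The 9 glycolysis and fructose genes had a median of 9.38; ketohexokinase (Khk) was at 11.65, Pklr, the liver pyruvate kinase, at 9.19, Pfkl at 7.59 and the fasting-related kinase Pdk4 at 5.97. The 13 glycogen genes had a median of 8.94, with Pygl, the liver phosphorylase, at 11.09 and Gys2, the liver synthase, at 10.40.

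Fat burning ranked above fat and sterol making. The 17 mitochondrial oxidation genes had a median of 10.99, led by the thiolase Acaa2 at 12.64, and the 11 peroxisomal genes one of 11.19. Omega-oxidation (10) was at 10.63, with Cyp4a10 and Cyp4a14, classical PPAR alpha targets, at 12.95 and 12.43. De novo lipogenesis (17) had a median of 9.39 and a wide span, from the desaturases Fads2 at 12.12 and Scd1 at 12.06 to Fasn at 8.27, Acaca at 7.51 and Pnpla3 at 4.42. Cholesterol synthesis (19) was the dimmest function list at 8.43, with Sc5d at 11.91 but squalene epoxidase (Sqle) at 6.57. Bile acid synthesis and transport (19) stood at 11.09, and its rate-limiting Cyp7a1 at 11.40.

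Drug and hormone metabolism spanned the whole scale. Of 36 cytochromes P450 of families 1 to 3, 31 were above background; Cyp2e1 led, Cyp2d9 was at 12.89 and Cyp2a5 at 12.55. Cyp1a1, Cyp3a16, Cyp3a41a, Cyp2b13 and Cyp2c55 were the 5 not above it in both sets, at 3.80, 3.20, 4.66, 4.78 and 5.42. Of 36 conjugation genes 33 were above background, from Mgst1 to Sult3a1 at 3.27. Cyp3a16, Cyp3a41a, Cyp2b13 and Sult3a1 are known as female-biased genes of mouse liver. The 18 female-biased genes had a median of 6.28 and the 18 male-biased genes one of 11.10, in these male mice. Of the female-biased genes 10 were above background, a share near the 53.7% of all genes, and of the male-biased genes all 18 were.

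The samples carried the markers of liver cells. All 13 hepatocyte markers were above background, with a median of 12.37. Kupffer cell markers had a median of 8.43 (12 of 13 above background; Cd5l 10.11, Clec4f 9.28), sinusoidal endothelium 7.61 (12 of 15; Clec4g 9.61, Fcgr2b 9.38) and stellate cells 7.03 (14 of 16). Dcn, a stellate and fibroblast proteoglycan, was the brightest of these at 11.83. Bile duct epithelium was at 5.55, with 2 of 7 markers above background.

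Markers of neurons (8), kidney tubule (6) and B cells (7) were all at or under background, with medians of 4.58, 4.44 and 4.74. Of 10 T and natural killer cell markers 2 passed, of 9 neutrophil markers 2, of 10 male germ cell markers 2 and of 8 skeletal muscle markers 1. Of 6 adipocyte markers 2 passed, the fatty acid carrier Cd36 at 8.90 and the lipase Lpl at 8.05, while Adipoq and Lep, hormones of fat cells, were at 3.48 and 3.57. Of 3 red cell markers 2 passed, with the haem synthesis enzyme Alas2 at 9.94 and the anion exchanger Slc4a1 at 7.16. Of 27 cell cycle genes 11 were above background, led by Pcna at 9.49; Mki67 was at 5.41 and Cdk1 at 4.22. Of 9 exocrine pancreas markers 5 passed, a share near the 53.7% of all genes. Amy2a5, an amylase, passed in set 2 only through control 6, with 4.67, 5.01 and 8.24 in controls 4 to 6. The pancreas markers are described below by liver.

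**Figure D1:**
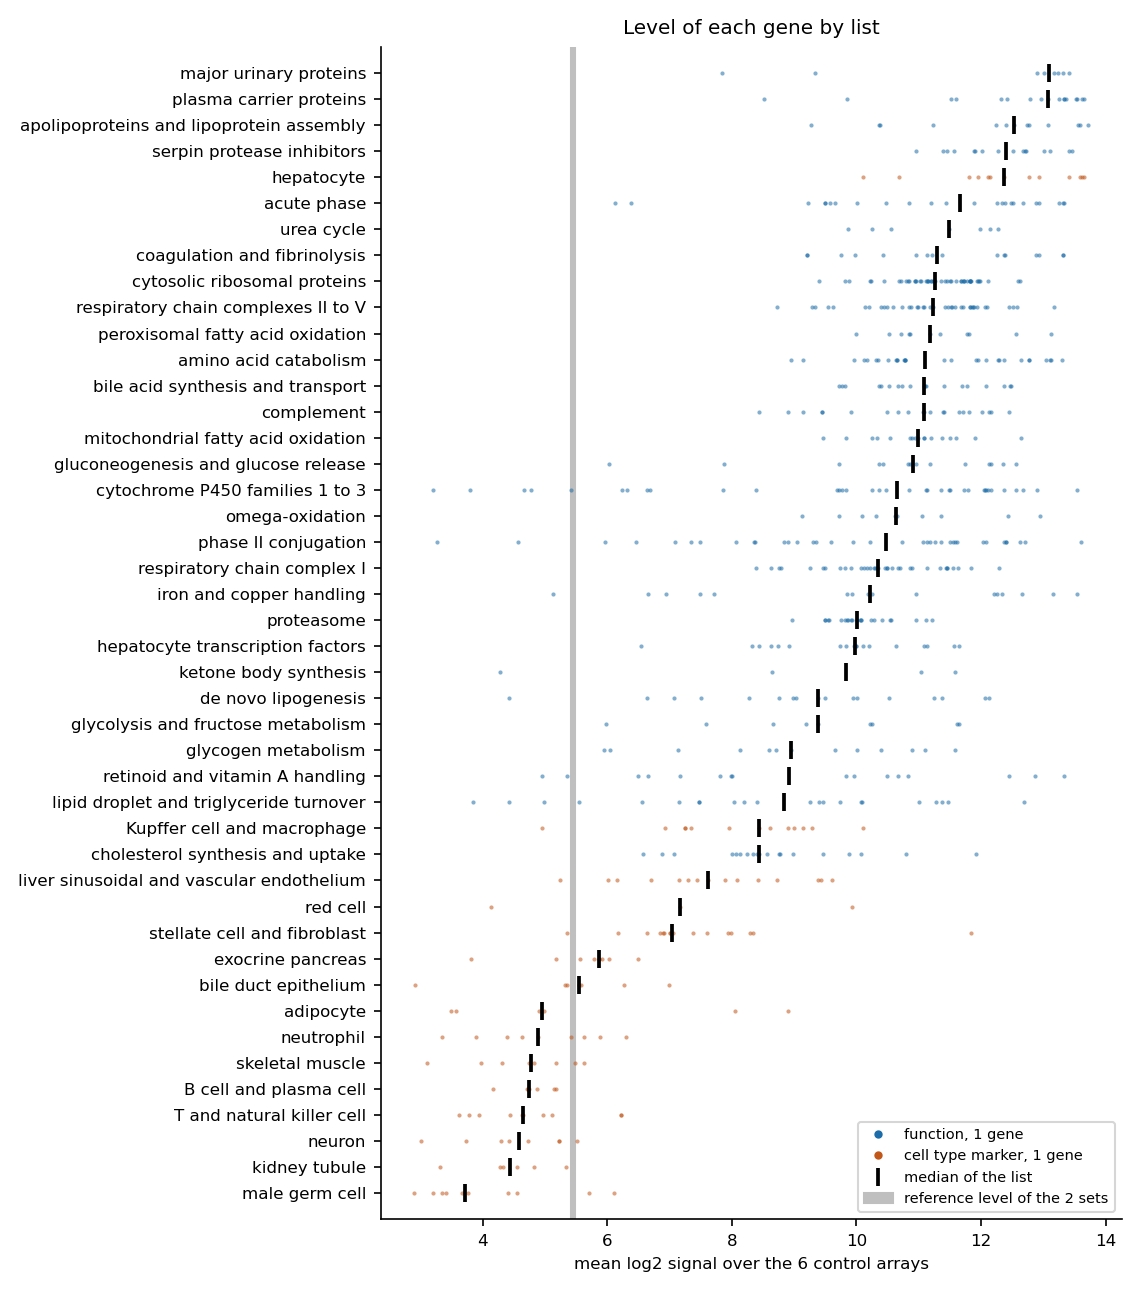
Mean log2 signal over the 6 control arrays (x axis) of each gene in the function lists (blue) and cell type marker lists (orange), ordered by list median (black bar). The grey band spans the 99th percentile of the chemosensory genes in the 2 sets, 5.41 and 5.48; the secretory lists sit farthest right, and neuron, kidney and male germ cell markers lie mostly left of the band.

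Isoform dominance was read within gene families, with the rows of 1 gene as a yardstick for what probe choice alone gives. For the 27 genes that had over 1 row and were above background in the brightest row, rows of the same gene differed by a median of 0.61, an upper quartile of 1.53 and at most 5.32. Of 53 families with 2 or more measured members, 45 had the same brightest member in all 6 arrays and 49 the same one in both set means. In 34 of the 45 the gap to the next member was above 1.53, and in 8 families it was above 5.32.

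Those 8 were the sharpest cases of a liver form beside forms of other tissues. Arg1 stood at 12.27 and the kidney and gut arginase Arg2 at 3.54. Fbp1 stood at 12.57 and the muscle form Fbp2 at 4.51, Scd1 at 12.06 and Scd4 at 4.39, and Hnf4a, the master hepatocyte nuclear receptor, at 10.11 with Hnf4g at 3.57. Cytosolic Pck1 stood at 12.13 and mitochondrial Pck2 at 6.02. Liver phosphorylase Pygl stood at 11.09 and muscle Pygm at 5.35, Cideb, which acts on lipoprotein lipid, at 11.28 and Cidec at 5.55, and the insulin receptor Insr at 10.59 with Insrr at 5.01. Arg2, Fbp2, Scd4, Hnf4g, Pygm and Insrr were at or under background, so these gaps are a bright gene against a dark one. Cidec did not pass either, as it was above the background level in set 2 only (5.32 in set 1 and 5.78 in set 2).

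A second group had gaps between 2 and 5.32. Cpt1a, the liver gate of mitochondrial fatty acid entry, was at 11.09 and the muscle form Cpt1b at 5.97. The glucagon receptor Gcgr was at 9.58 and Glp1r at 4.90, Dgat2 at 11.38 and Dgat1 at 7.15, G6pc at 10.95 and the widespread G6pc3 at 6.84, and Gys2 at 10.40 with the muscle form Gys1 at 6.43. Among lipid receptors, Ppara was at 11.09 and Pparg at 7.84, and among droplet coats Plin2 was at 11.47 and Plin3 at 8.19. The insulin receptor substrate Irs2 (8.85) was brighter than Irs1 (6.48), and Slc2a2 (12.36) brighter than the next hexose carrier, the urate transporter Slc2a9 (8.92).

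In the 8 families without a constant leader no member stood apart. Mt2 and Mt1, the metal-binding metallothioneins, averaged 12.86 each and led in 3 arrays each. Hamp and Hamp2, the hepcidins, gave 12.26 and 12.20, Insig1 and Insig2 9.47 and 9.10, the alanine aminotransferases Gpt and Gpt2 10.79 and 10.64, and the uptake carriers Slco1b2 and Slc10a1 12.46 and 12.08. Foxa2 and Foxa3 gave 8.74 and 8.62, Acaca and Acacb 7.51 and 7.07, and Ppargc1b and Ppargc1a 8.29 and 7.87. For Gpt, Slco1b2, the metallothioneins and the FOXA factors the leader of the set means changed with the set.

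The AMPK subunits, of which the study deletes both alpha forms, differed in signal. AMPK is an energy sensor built of a catalytic alpha, a scaffold beta and a nucleotide-binding gamma subunit. Prkaa2 (alpha 2) gave 8.76, 8.79, 8.96, 9.67, 9.74 and 9.91 in controls 1 to 6, and Prkaa1 (alpha 1) gave 6.63, 6.63, 6.35, 7.36, 7.18 and 7.50. Alpha 2 was brighter in every array, and both were above background. Beta 1 (Prkab1) was at 7.74 ± 0.28 and beta 2 (Prkab2) at 3.48, under background. Gamma 1, 2 and 3 (Prkag1, Prkag2, Prkag3) were at 8.66, 8.02 and 7.47, closer together than the upper quartile of rows of 1 gene. Stk11, the upstream kinase LKB1, was at 10.53 with a pooled SD of 0.02, and Camkk2 at 5.61.

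Of the carriers that move metformin, Slc47a1 (MATE1), which passes it to bile, was the brightest measured at 9.62 ± 0.41, with 9.16, 9.32 and 9.26 in set 1 and 9.97, 9.99 and 10.01 in set 2. The carnitine carriers Slc22a5 and Slc22a4 were at 8.57 and 6.19. Slc47a2, Slc29a4 and Slc22a2, the last a kidney cation carrier, were under background at 5.04, 3.74 and 3.16.

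**Figure D2:**
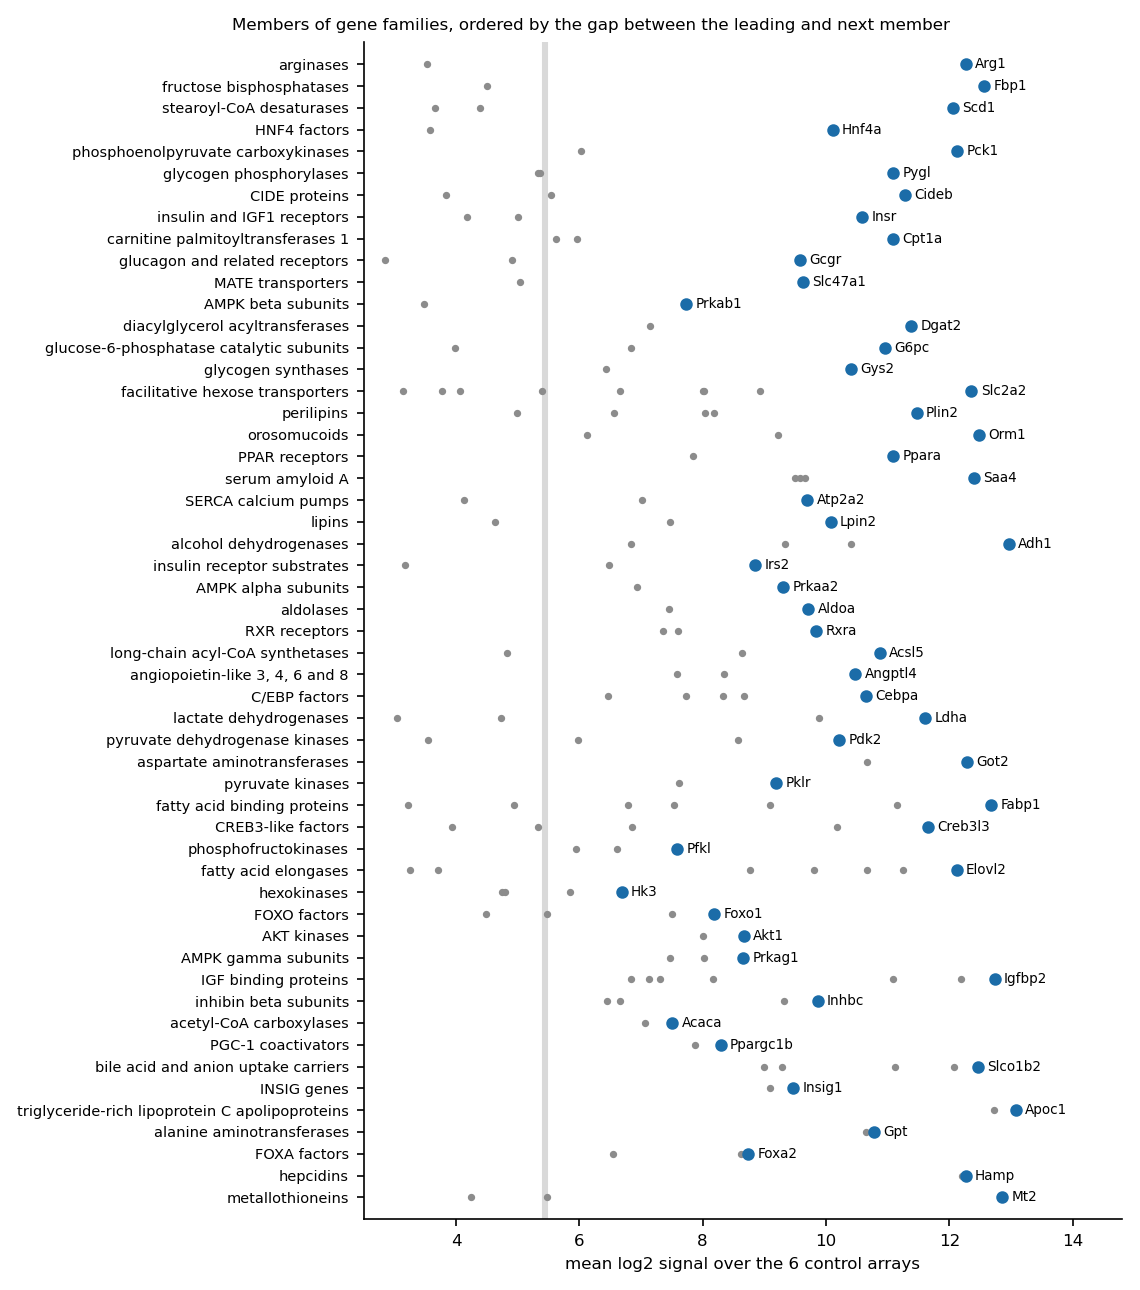
Mean log2 signal over the 6 control arrays (x axis) of every measured member of 53 gene families (rows), ordered by the gap between the brightest member (blue, named) and the next. Grey points are the other members and the grey band is the background level, 5.41 to 5.48; Arg1, at 12.27 against 3.54 for Arg2, is at the top, and Mt2, level with Mt1 at 12.86, at the bottom.

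The level of some functions depended on the array set. A difference over 1 between the set means was seen for 2030 genes (10.4%), with 1331 (6.82%) lower and 699 (3.58%) higher in set 2. It was common among subunits of large protein complexes. Of 35 subunits of respiratory complex I, the NADH dehydrogenase, 23 were lower by over 1 and none higher; the list median was 11.15 in set 1 and 9.61 in set 2. The same held for 26 of 49 ribosomal proteins, 12 of 23 proteasome subunits and 16 of 39 subunits of complexes II to V, again with none higher.

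Ndufa1, a complex I subunit, gave 12.02 ± 0.02 (SD, n = 3) in set 1 and 8.67, 8.22 and 8.35 in set 2. Rpl27, a large-subunit ribosomal protein, gave 11.37, 11.47 and 11.50 against 7.47, 7.24 and 7.30. The values within a set were tight and the sets lay far apart. The widest gap of all genes was that of Mapkapk2, a stress-activated kinase, at 10.35, 10.21 and 10.20 against 4.32, 4.35 and 4.78, above background in 1 set and below it in the other. Other wide gaps were those of Cpe (gap -5.06), Laptm4b (-4.60), S100a6 (-4.46) and the endothelial scavenger receptor Stab1 (-3.67). Upward gaps were smaller, the widest being Itgb7 at 1.96, Myh9 at 1.92, Ctdsp1 at 1.91 and Entpd7 at 1.87.

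The gap moved with the genomic span of the gene, from start to end on GRCm38.p6. Among 11453 genes above background in at least 1 set, the bottom quartile of span had a median gap of -0.16, and 19.2% were lower by over 1. In the top quartile of span the median gap was 0.39 and 4.19% were lower by over 1, while 11.4% were higher. Over all of them Spearman's coefficient was 0.31, across genes. Whether handling of the samples, the array or the labelling differed between the sets was not tested. The plasma carriers, major urinary proteins, apolipoproteins and complement genes had median gaps near that of all genes or below it, at 0.09, 0.01, 0.05 and 0.02.

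For liver genes outside these complexes single members moved too. Gys2, the glycogen synthase, gave 11.17, 11.26 and 11.58 against 9.51, 9.31 and 9.58. Apom, a sphingolipid-carrying apolipoprotein, gave 11.27, 11.16 and 11.46 against 9.61, 9.23 and 9.57. Hnf4a went the other way, at 9.51, 9.35 and 9.31 against 10.79, 10.81 and 10.88. Mean levels of such genes over the 6 arrays describe neither set.

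**Figure D3:**
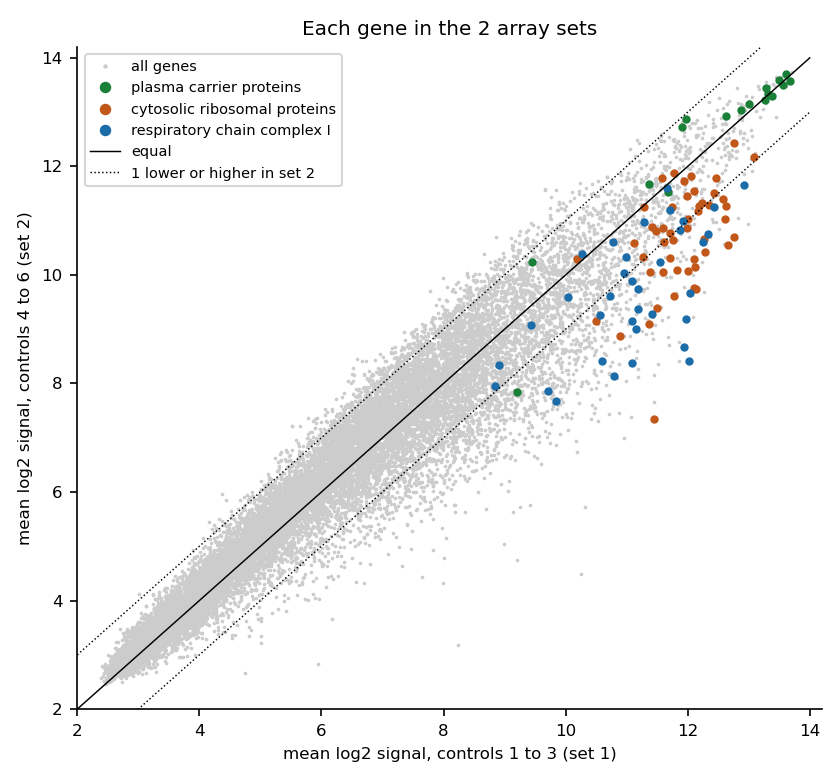
Mean log2 signal of each of 19505 genes in controls 1 to 3 (x axis) and controls 4 to 6 (y axis), with plasma carriers in green, cytosolic ribosomal proteins in orange and complex I subunits in blue. The solid line marks equal values and the dotted lines a gap of 1; 23 of 35 complex I subunits and 26 of 49 ribosomal proteins lie under the lower dotted line, while the carriers cluster on the solid line.

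Within sets, most genes differed little between livers. The pooled SD had a median of 0.186 and a 90th percentile of 0.339, and it was above 0.5 in 368 genes (1.89%), 195 of them above background. Of these 195, 80 were over 0.5 in each set taken alone. Most hepatocyte functions were steady. The mean deviation of a list ranged by under 0.2 between the livers of either set in 20 of 29 function lists. They included the plasma carriers (0.03 and 0.04 in set 1 and set 2), apolipoproteins, serpins, complement, coagulation, urea cycle, glucose output, the P450 enzymes, both fatty acid oxidation lists and bile acid handling. Igf1, the main endocrine product of growth hormone action in liver, gave 12.89, 12.79, 12.77, 13.23, 13.14 and 13.12, steady within each set.

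Of 66 lists with at least 5 measured members, 5 ranged by over 0.5 in both sets. They were sinusoidal endothelium, class II antigen presentation, the interferon response, cholesterol synthesis and the SREBP2 sterol targets, the last 2 sharing most genes. The count rests on single arrays: without control 1 it was 0, without control 5 it was 1, and without control 4 it was 2. With the median of the members in place of the mean it was 3.

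**Figure D4:**
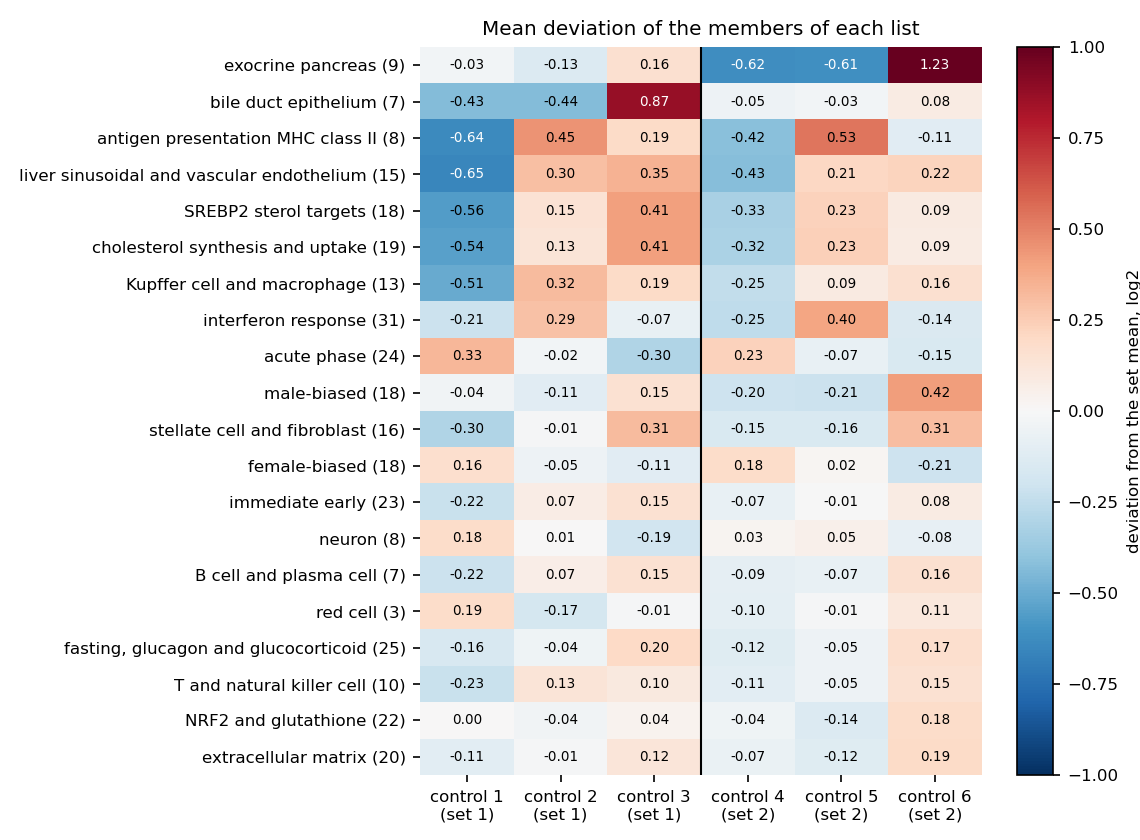
Mean deviation of the members of a list from the mean of their own array set, in log2 units (colour and printed value), for the 20 lists with the widest range in either set (rows, members measured in parentheses) in the 6 control arrays (columns). Controls 1 and 4 are low for endothelium (-0.65 and -0.43), class II antigen presentation (-0.64 and -0.42) and SREBP2 targets (-0.56 and -0.33), and controls 2 and 5 are high for the interferon response (0.29 and 0.40).

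Controls 1 and 4 stood apart by low signal of sinusoidal endothelial and Kupffer cell markers. Of 19505 genes, 14.7% were lowest in control 1 within set 1 and lowest in control 4 within set 2. Among 195 variable genes above background it was 122, among 15 endothelial markers 13, and among 13 Kupffer cell markers 10. It was less common among 16 stellate cell markers (7), 7 bile duct markers (1) and 9 neutrophil markers (1). Fcgr2b, the inhibitory Fc receptor of the sinusoid wall, gave 7.39, 9.54, 9.56, 8.95, 10.41 and 10.41. Clec4g, a sinusoidal lectin, gave 8.27, 10.40 and 10.49 in set 1 and averaged 9.51 ± 0.44 (SD, n = 3) in set 2, where controls 5 and 6 were at 9.73 and 9.80 and control 4 was lowest. In each set 1 array was low and the other 2 were nearly level.

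Kdr, the receptor for vascular endothelial growth factor, gave 7.51, 8.58, 8.56, 8.56, 9.75 and 9.39, and Dnase1l3, a secreted nuclease, 6.94, 8.43, 8.34, 8.27, 9.20 and 9.34. Both again had their low values in controls 1 and 4. Without control 1 the endothelial list ranged by 0.05 in set 1, and without control 4 by 0.01 in set 2, so the range in each set came from that array. Of the hepatocyte markers, none of 13 was lowest in both controls 1 and 4, and 3 were highest in both.

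Sterol genes were lowest in the same 2 arrays. These genes are switched on by SREBP2 when the cell senses little cholesterol. Of 19 cholesterol synthesis genes 16 were lowest in controls 1 and 4, against 14.7% of all genes. Sqle, squalene epoxidase, gave 5.87, 7.44, 7.87, 5.02, 6.77 and 6.47, and Msmo1, the methylsterol oxidase, 7.16, 8.66, 9.21, 7.24, 8.61 and 8.57. Hmgcs1, the HMG-CoA synthase of the pathway, gave 8.83, 10.12, 10.08, 9.69, 10.44 and 10.16. Insig1, a sterol-responsive brake, gave 8.51, 9.61, 10.09, 9.04, 9.68 and 9.88. In all 4 the low value of each set was control 1 or control 4; between the sets only Msmo1 had nearly the same low value.

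Acute phase genes ran the opposite way. These are secreted proteins that hepatocytes raise in inflammation under interleukin 6 and glucocorticoids. Of 24 genes, 18 were highest in control 1 and in control 4 (15.2% of all genes), and 10 were lowest in controls 3 and 6 (13.1%). Lcn2, the siderophore-binding lipocalin, gave 11.12, 9.79, 8.27, 10.90, 9.99 and 10.00. Saa2, serum amyloid A2, gave 11.22, 10.45, 9.48, 9.29, 9.27 and 8.22, and Orm2, an alpha-1-acid glycoprotein, 10.79, 9.56, 9.09, 9.19, 8.30 and 8.39. Control 1 was clearly above its set for all 3; control 4 was clearly above for Lcn2 and Orm2 and level with control 5 for Saa2.

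The constant members of the list were those at the top of the signal scale, where Hp and Fgg had pooled SDs of 0.05 and 0.04 against 1.07 for Lcn2. Nnmt, nicotinamide N-methyltransferase, outside the list, gave 11.89, 11.40, 9.35, 10.25, 9.66 and 9.32. Gdpd3, a phosphodiesterase, had the largest pooled SD among genes above background, with 8.57, 7.57, 4.75, 7.42, 5.92 and 6.13. It was highest in controls 1 and 4, and control 3 was below background. Of 30 amino acid catabolism genes, 16 were highest in controls 1 and 4, though by little: their median pooled SD was 0.11.

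The promoters of Lcn2, Saa2 and Orm2 are shown because they were 3 of the 4 acute phase genes with the largest pooled SD. The RefSeq sequences (GRCm38.p6) cover 250 bases before the start, 5′ to 3′ along the gene. Capitals mark matches to TTGCNNAA on either strand, a short core of the C/EBP site, the class of factor textbooks name for this response. Lcn2 is at chr2:32387740-32387989 on the minus strand, Saa2 at chr7:46751583-46751832 and Orm2 at chr4:63362199-63362448, both on the plus strand.
Lcn2: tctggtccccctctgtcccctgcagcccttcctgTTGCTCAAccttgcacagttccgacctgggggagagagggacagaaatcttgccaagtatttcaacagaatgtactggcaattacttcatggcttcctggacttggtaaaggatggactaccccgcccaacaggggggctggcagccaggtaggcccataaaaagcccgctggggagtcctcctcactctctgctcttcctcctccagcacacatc
Saa2: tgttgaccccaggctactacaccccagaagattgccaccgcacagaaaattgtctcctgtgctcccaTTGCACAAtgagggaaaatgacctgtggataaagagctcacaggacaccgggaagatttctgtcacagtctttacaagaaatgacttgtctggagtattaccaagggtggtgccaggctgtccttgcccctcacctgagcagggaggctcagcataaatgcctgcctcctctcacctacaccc
Orm2: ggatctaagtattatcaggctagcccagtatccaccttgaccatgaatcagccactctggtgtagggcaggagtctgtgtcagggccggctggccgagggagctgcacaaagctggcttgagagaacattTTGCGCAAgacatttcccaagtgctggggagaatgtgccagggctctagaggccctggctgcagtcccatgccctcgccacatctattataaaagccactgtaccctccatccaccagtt
In windows that also take in the first 50 bases after the start, 12 of the 21 acute phase genes with a promoter entry held the motif, and 12.2% of 27025 genes did. A match describes these letters and is not a measured site.

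Controls 2 and 5 were the livers with high interferon signal. Type I and type II interferons switch on antiviral and antigen-presenting genes. Of 31 interferon response genes 23 were highest in control 2 and in control 5, against 11.7% of all genes; 28 were highest in control 2 (30.7% of all genes) and 26 in control 5 (33.4%). Gbp2, a guanylate-binding protein, gave 6.14, 6.85, 6.97, 5.78, 7.79 and 6.48. Ifit1, an antiviral RNA-binding protein, gave 7.26, 8.40, 7.69, 7.58, 8.58 and 7.25, and the chemokine Cxcl9 gave 7.43, 8.19, 7.57, 7.52, 9.21 and 7.54. Control 5 was clearly highest of set 2 for all 3, and control 2 highest of set 1 for Ifit1 and Cxcl9, while Gbp2 was level in controls 2 and 3.

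The chemokine Cxcl10 gave 6.53, 7.51, 7.18, 5.88, 7.37 and 6.30, with the same 2 arrays on top. Class II antigen presentation overlapped with both patterns. H2-Ab1 gave 8.13, 9.90, 9.24, 7.79, 9.21 and 8.35, and H2-Eb1 8.37, 9.65, 9.38, 7.34, 8.59 and 7.44. Of the 8 genes, 6 were highest in controls 2 and 5 (11.7% of all genes) and 6 were lowest in controls 1 and 4 (14.7%). The range of the interferon list in set 1 was 0.50 with all 3 arrays and 0.14 without control 2, and in set 2 it was 0.65 and, without control 5, 0.11.

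The 3 lists of protein-quality genes differed in how often members were highest in the same 2 livers. Of 18 endoplasmic reticulum chaperone genes 10 were highest in controls 2 and 5, of 23 proteasome subunits 12 and of 13 heat shock genes 3, against 11.7% of all genes, and the steps were small. Hspa5, the chaperone BiP, gave 11.88, 12.07, 12.07, 11.73, 12.04 and 12.13, so control 6 was highest in set 2. The mean deviation of the chaperone list was 0.15 in control 2 and 0.12 in control 5. It was -0.11 in control 1 and -0.18 in control 4, and 10 of the 18 chaperone genes were lowest in both (14.7% of all genes). Of the proteasome subunits 4 were lowest in both, and of the heat shock genes 3.

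Promoters of 3 interferon genes are shown because the list moved together in both sets. Capitals mark the core of the interferon-stimulated response element on either strand, TTTC, any 2 bases and TTTC. Gbp2 is at chr3:142620413-142620662 (plus strand), Cxcl10 at chr5:92348890-92349139 (minus strand) and Ifit1 at chr19:34640639-34640888 (plus strand).
Gbp2: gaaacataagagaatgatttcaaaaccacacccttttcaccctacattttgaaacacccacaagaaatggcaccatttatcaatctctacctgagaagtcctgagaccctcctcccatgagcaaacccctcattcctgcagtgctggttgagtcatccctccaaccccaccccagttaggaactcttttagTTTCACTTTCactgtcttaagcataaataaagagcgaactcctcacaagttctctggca
Cxcl10: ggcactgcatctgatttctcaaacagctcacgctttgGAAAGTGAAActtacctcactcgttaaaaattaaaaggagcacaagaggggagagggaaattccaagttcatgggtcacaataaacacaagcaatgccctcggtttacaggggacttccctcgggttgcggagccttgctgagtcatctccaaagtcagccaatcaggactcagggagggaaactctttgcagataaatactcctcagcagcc
Ifit1: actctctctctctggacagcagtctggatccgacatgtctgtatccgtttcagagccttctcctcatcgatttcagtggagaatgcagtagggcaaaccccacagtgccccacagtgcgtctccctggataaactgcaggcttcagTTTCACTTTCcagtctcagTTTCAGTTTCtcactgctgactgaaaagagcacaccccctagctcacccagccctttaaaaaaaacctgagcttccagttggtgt
Of the 24 interferon response genes with a promoter entry, 16 held the motif in the 300-base window, against 3.99% of 27025 genes. Ifit1 held 2 matches, with first bases at positions -104 and -85 from the start, and Gbp2 held 1 at -59. For the sterol list the same search with TCACNCCAC, a core of the sterol element, found 1 of 14 genes (Hmgcs1), against 1.44% of all genes.

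Several growth hormone-related genes had their highest or lowest values in controls 3 and 6. Pulses of growth hormone act in liver through STAT5, which raises Cish and Socs2 and lowers the repressor Bcl6, and they set much of the sex bias of mouse liver. Bcl6 gave 5.79, 5.99, 7.20, 5.87, 6.02 and 8.81. Socs2 gave 9.89, 9.38, 8.88, 9.84, 9.09 and 8.12, and Cish 5.85, 6.07, 5.65, 6.33, 6.25 and 4.89. Bcl6 was highest and the other 2 lowest in controls 3 and 6, with the larger step in control 6; for Cish, controls 1 to 3 were nearly level. Over the whole growth hormone and IGF list, 6 of 13 genes were lowest in both arrays (13.1% of all genes) and 3 of 13 highest in both (12.1%), so members went both ways.

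Onecut1, a hepatocyte factor, followed with 10.55, 10.63, 9.53, 9.64, 9.82 and 8.29. Of 18 male-biased genes 11 were highest in controls 3 and 6, against 12.1% of all genes. The fatty acid hydroxylase Cyp4a12a gave 10.39, 10.37, 11.46, 11.01, 11.05 and 12.02, highest in the same arrays. The list deviated by 0.42 in control 6 and by 0.15 in control 3. Of female-biased genes, 6 of 18 were lowest in both (13.1% of all genes); Cyp2b9 gave 10.07, 10.21, 9.13, 10.93, 11.19 and 9.94. Igf1 and Ghr, the growth hormone receptor, had pooled SDs of 0.06 and 0.08.

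The promoters of Bcl6 and Cish are shown beside these values. Capitals mark TTCNNNGAA, the STAT5-type site, which reads the same on both strands. For Bcl6 the one of its 2 annotated starts with more matches is given, at chr16:23981284-23981533 (minus strand). Cish is at chr9:107296409-107296678 (plus strand), and its last 20 bases lie after the start and hold both matches.
Bcl6: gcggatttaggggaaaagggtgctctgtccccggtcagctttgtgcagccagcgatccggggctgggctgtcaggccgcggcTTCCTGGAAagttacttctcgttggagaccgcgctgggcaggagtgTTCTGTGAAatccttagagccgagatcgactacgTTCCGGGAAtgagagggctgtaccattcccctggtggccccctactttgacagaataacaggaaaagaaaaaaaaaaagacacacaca
Cish: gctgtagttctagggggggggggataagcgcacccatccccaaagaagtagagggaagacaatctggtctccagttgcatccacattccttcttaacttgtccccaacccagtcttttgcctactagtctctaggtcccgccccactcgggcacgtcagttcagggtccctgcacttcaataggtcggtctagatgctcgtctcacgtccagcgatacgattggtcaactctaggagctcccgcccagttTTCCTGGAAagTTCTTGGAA
Bcl6 held 3 matches, with first bases at positions -168, -122 and -88 from the start. Of the 12 genes of the growth hormone list with a promoter entry 3 held the motif (Bcl6, Cish and Igfals), against 9.55% of 27025 genes. The motif was as common or more so in other lists, with 6 of 24 interferon response genes and 7 of 21 acute phase genes, so it does not set this list apart.

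Hormone-fasting genes had single members in the same order. Igfbp1, an insulin-suppressed and fasting-raised binding protein, gave 7.72, 8.55, 10.19, 6.64, 7.17 and 8.73, highest in controls 3 and 6. Of 25 fasting, glucagon and glucocorticoid genes 9 were highest in those 2 arrays (12.1% of all genes) and 9 were lowest in controls 1 and 4 (14.7%). Dusp1, a glucocorticoid-raised phosphatase, gave 7.16, 8.50, 9.06, 8.28, 9.38 and 9.73. G6pc gave 10.30, 10.42, 11.09, 11.03, 11.31 and 11.56, a narrower range in the same order. Of 21 clock genes 8 were highest in controls 3 and 6, against the same 12.1%, with Dbp, a clock output factor, at 11.75, 11.93, 12.08, 11.86, 12.02 and 12.14; the time of sampling of each mouse is not in the labels.

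The Igfbp1 promoter is shown because the gene had the widest fasting-related range. It is at chr11:7197537-7197786 on the plus strand, and capitals mark CAAAACA on either strand, the core of the FOXO site through which insulin is known to silence it.
Igfbp1: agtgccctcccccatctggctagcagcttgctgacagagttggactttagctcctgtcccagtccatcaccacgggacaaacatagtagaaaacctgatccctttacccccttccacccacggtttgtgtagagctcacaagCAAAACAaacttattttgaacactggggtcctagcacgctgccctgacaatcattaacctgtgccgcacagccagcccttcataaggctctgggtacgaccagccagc
The match has its first base at position -108 from the start; 7.2% of 27025 genes hold 1 or more in the 300-base window.

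Matrix-making cells were also highest in controls 3 and 6. Of 16 stellate cell and fibroblast markers 12 were highest in both (12.1% of all genes), and all 16 were highest in control 6 within set 2 (31.9%). Lum, the proteoglycan lumican, gave 6.57, 7.91, 8.27, 6.84, 7.12 and 7.53, and Col3a1, a fibrillar collagen, 6.18, 6.55, 6.57, 7.44, 6.67 and 8.08. Without control 6 the list ranged by 0.01 in set 2. The list deviated by 0.31 in controls 3 and 6 alike, beside the growth hormone and fasting genes; its part in those results was not tested.

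**Figure D5:**
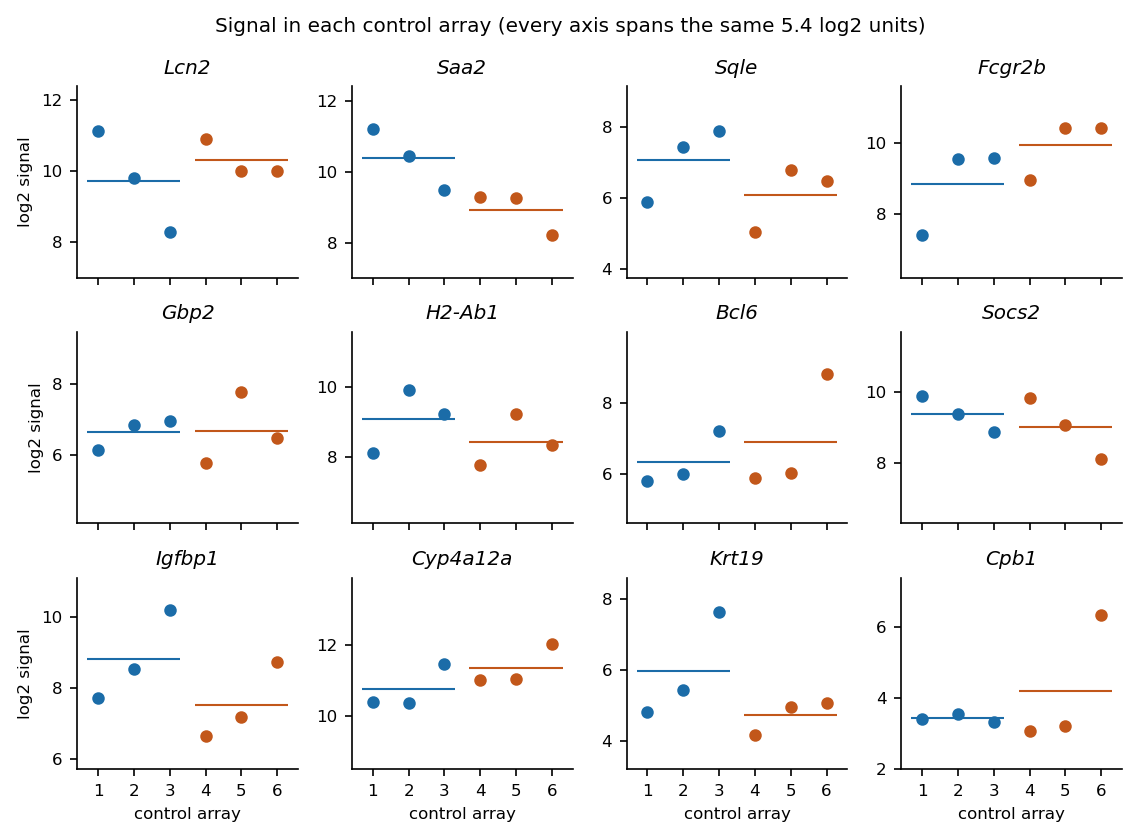
Log2 signal of 12 genes (panels) in the 6 control arrays (x axis), with set 1 in blue, set 2 in orange and a line at each set's mean of 3. Lcn2 is highest in controls 1 and 4 (11.12 and 10.90), Sqle and Fcgr2b are lowest there, Bcl6 is highest in controls 3 and 6 (7.20 and 8.81), Krt19 stands out in control 3 (7.63) and Cpb1 in control 6 (6.32).

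Single livers had high signal of bile duct, mucosa, smooth muscle or exocrine pancreas genes. In control 3, 5 of 7 bile duct markers were the highest of set 1 (33.2% of all genes were), and the list deviated by 0.87. Muc1, an epithelial mucin, gave 5.44, 4.97, 8.57, 4.79, 4.94 and 4.75, and Krt19, a duct keratin, 4.80, 5.44, 7.63, 4.18, 4.96 and 5.08. Control 3 was far above background for both, while Muc1 in control 1 and Krt19 in control 2 were at its edge, both at 5.44. The mucosal genes Spink4, Tff2 and Ly6d and the smooth muscle genes Acta2 and Tagln stood out in the same array, Acta2 at 9.07 against 5.87 to 6.85 in the others.

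In control 6 all 9 exocrine pancreas markers were the highest of set 2 (31.9% of all genes were), and the list deviated by 1.23. The amylase Amy2a4 gave 6.77, 6.03, 6.05, 4.86, 5.13 and 8.62, and the carboxypeptidase Cpb1 3.41, 3.54, 3.32, 3.06, 3.22 and 6.32. The near-identical amylases Amy2a2, Amy2a4 and Amy2a5 share sequence, so they are 1 observation rather than 3. Ctrb1, chymotrypsinogen, gave 4.82, 4.04, 8.48, 4.49, 4.08 and 7.45 and so was high in controls 3 and 6 alike. Controls 3 and 6 are also those with high stellate and male-biased signal, and the part of adjoining tissue in those values was not tested.

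Some of the variable genes varied in the knockout livers too. Of the 195 genes above background with a pooled SD over 0.5, 30 (15.4%) were also over 0.5 within sets in the 8 knockout arrays, against 0.63% of all genes above background. In the knockout arrays 146 of 19505 genes (0.749%) passed that limit. Across the 10475 genes above background the control and knockout SDs had a Spearman coefficient of 0.47, a description across genes. On the 195 genes, the deviations of knockout arrays at the same place in their sets correlated at 0.43 to 0.60, and those of controls at 0.26 to 0.58.

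Genes were also matched by the order of the 3 livers within each set. In all, 839 genes (4.3%) had the order of Bcl6 in both sets, 40 of them with a pooled SD over 0.5 and above background. Of all 19505 genes, 195 were past that limit and above background. Igfbp1, Clec4g and Dusp1 were among the 40 with the order of Bcl6. Other genes of their lists were not, as Socs2 had the reverse order, Fcgr2b that of Sqle and Kdr that of H2-Ab1. For the endothelial genes these orders rest on near ties and do not set the genes apart. In controls 2 and 3 Fcgr2b gave 9.54 and 9.56, Kdr 8.58 and 8.56, and Clec4g 10.40 and 10.49. In controls 5 and 6 Fcgr2b gave 10.41 in both. Lcn2 shared its order with 750 genes (3.8%), of which 2 passed the SD limit. The reverse order was held by 695 genes (3.6%), 22 of them past the limit, and Sqle and Gbp2 were among these. H2-Ab1 shared its order with 670 genes (3.4%), 25 past the limit. The orders of Lcn2, Bcl6 and Gbp2 rest on small steps too. Lcn2 gave 9.99 and 10.00 in controls 5 and 6. Bcl6 gave 5.79 and 5.99 in controls 1 and 2, and 5.87 and 6.02 in controls 4 and 5. Gbp2 gave 6.85 and 6.97 in controls 2 and 3. The orders matched for Lcn2 and Bcl6, and the counts that follow from them, are therefore not firm.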

How the data were processed

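Liver RNA of the 6 control samples was hybridised to arrays, 1 per sample, after WT PLUS labelling, per the labels' protocols. The authors made the deposited signals with RMA in Partek, per the submitters' processing notes, and the range of 2.13 to 13.76 in the controls was read as log2; no version is given in the sources used here. RMA subtracts background and as a rule brings arrays close to 1 distribution, which removes most of a shift shared by all genes.

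The table held 22206 rows, of which 19572 carried 1 symbol and 2634 were left unnamed. The brightest row stood for each of 55 genes with over 1 row, giving 19505 genes. Of 1216 distinct genes in the lists, 1074 were measured. Array sets were read from the correlations between arrays, so no test was run on them or within them. A deviation is an array's value minus its set mean. The number of arrays limits the precision. Where nothing says that samples are separate animals, the SDs given may be technical.

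The genes named were the 30 brightest, up to 6 brightest, dimmest and most variable members of each list, all members of the families described, the 30 genes of largest pooled SD above background, the 10 largest gaps between sets each way, and the AMPK and metformin transport genes. Other genes named beside these, such as Col3a1 and Hspa5, were chosen after their values were seen. Members, lists and motifs were chosen with earlier results of these data known. Promoters came from RefSeq (GRCm38.p6). Alternatives were other scalings, thresholds, summaries of a list or gene, each set alone, and leaving out each array. Python 3.11.15, pandas 2.3.3, NumPy 2.4.6, SciPy 1.17.1 and matplotlib 3.10.9 were used, and the steps were tested on simulated data.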

Additional observations from a re-analysis of the deposited data

Results flagged for a closer look

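A single array stood far from the other 5 in 11 of 124 results looked at (58 genes and 66 lists). The gap to the nearest array exceeded 0.625 of the whole range, Dixon's 95% limit for 6 samples. In groups not picked for their spread, chance passes it in about 1 of 20. Some genes, such as Spink4 and Tff2, were named for their wide spread, so that rate does not hold for them. All 11 were single genes, and no list was flagged. The limit treats the 6 arrays as 1 group, although they fall into 2 sets, and genes of 1 tissue are not independent of each other.

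Control 3 was the high array for 9 genes. Acta2, a smooth muscle actin, was at 9.07 there, against 5.87 to 6.85 in the others. The epithelial genes Muc1 (8.57 against 4.75 to 5.44), Krt19 (7.63 against 4.18 to 5.44), Epcam (7.10 against 5.02 to 5.55) and Cldn7 (6.54 against 4.94 to 5.47) stood out in the same array. So did Car2, a carbonic anhydrase, at 9.35 (6.57 to 6.99), and the mucosal genes Spink4 at 8.95 (5.65 to 6.23), Tff2 at 7.89 (5.46 to 5.85) and Ly6d at 9.49 (6.66 to 7.69).

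Control 6 was the high array for 2 genes, the pancreatic carboxypeptidases Cpb1 at 6.32 (3.06 to 3.54) and Cpa1 at 7.76 (4.99 to 5.54).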

How the results depend on the processing

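No paired analysis was possible because the results are descriptions of 1 group and come from no test. Quantile normalization and median centring gave 2083 and 2033 genes with a gap over 1 between the sets (2030 as reported), 371 and 365 with a pooled SD over 0.5 (368 as reported) and the same number of constant family leaders, 45. The counts moved with their thresholds: 6354 genes had a gap over 0.5 and 236 over 2, while 3016 had a pooled SD over 0.3 and 58 over 0.8. With genes above background only, 195 passed the SD limit. Over all genes, 146 passed it in the knockout arrays. Leaving out 1 array gave 0 to 5 lists ranging by over 0.5 in both sets, with 0 without control 1, 2 without control 4 and 1 without control 5. The median of the members in place of the mean gave 3 such lists. Leaving out 1 array gave 2047 to 2157 genes for the gap, 319 to 491 for the SD and 10405 to 10583 genes above background. For why the list counts moved, the cause was not tested beyond the arrays named. Signal near the top of the scale and near background limits differences there.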
